A study of Glycine max with 6 samples.

Results

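Cytokinin oxidase genes, named *GmCKX* in soybean, were followed in V6 leaves as 3 likely duplicate pairs and 1 gene on its own. The 7 genes were picked by name from the 66184 gene IDs on the array, and each had 1 probe. *GmCKX01* (Glyma19g31620) and *GmCKX02* (Glyma03g28910) formed the first pair, *GmCKX12* (Glyma09g35950) and *GmCKX14* (Glyma12g01390) the second, and *GmCKX15* (Glyma04g05840) and *GmCKX17* (Glyma17g34330) the third. *GmCKX13* (Glyma11g20860) was the gene on its own. The genes were singled out with their change in these same leaves known, so the difference between drought-stressed and well-watered plants is given for them as a description and carries no test. The pairs are taken as named, since no sequence of these genes was used here.

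The plants were of the cultivar Williams 82, grown at 3 plants per pot in a greenhouse. Treatment began at the V6 stage, a late vegetative stage, which the treatment protocol puts at 28 days after sowing and the growth protocol at 35 days. In the drought group, the pots went without water for 6 days, by which time soil moisture had dropped to 5%, and in the well-watered group watering went on as usual. At the harvest on that day the study describes the plants as at beginning bloom. RNA of the fourth trifoliate leaf was put on 1 whole-transcript array per plant, for drought-stressed plants 1, 2 and 4 and well-watered plants 14, 15 and 16. The study collected 4 biological repeats, and the data hold arrays of 3 plants per group. The labels do not say which plants shared a pot, so the spread between the 3 plants of a group may be smaller than that between pots.

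Cytokinins (CKs) are adenine-derived hormones that promote cell division and delay the senescence of leaves. Cytokinin oxidases, also called cytokinin dehydrogenases, break CKs down irreversibly by removing their side chain, and thereby set how much active hormone a tissue keeps. Plants hold small families of these enzymes, whose members differ in where in the cell they act. CKs are perceived by membrane-bound histidine kinases, and the signal is passed through phosphotransfer proteins to response regulators in the nucleus. Soybean descends from an ancient polyploid, and many of its genes are present as duplicates on different chromosomes.

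Each value is a log2 signal relative to the median of that probe over the 6 arrays, so 1 unit is a 2-fold difference. The deposited values hold no level: they show which plants were higher or lower for a gene, but not whether *GmCKX01* was more abundant than *GmCKX02*, nor whether leaf markers were present. Centring on the median also fixes the innermost plants of groups that do not overlap at equal distances from 0, so only differences between plants are read. The medians of the 6 arrays over all probes lay between -0.097 (well-watered plant 16) and 0.13 (well-watered plant 14), a range far below the changes described for the 7 genes. None of the 7 probes shared its values with another probe. In RNA from whole leaves, fewer cells of a type and less RNA per cell cannot be told apart.

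*GmCKX01* and *GmCKX02* both fell steeply under drought. In the tables of the study the best *Arabidopsis* match of each is CKX1, an enzyme of the endoplasmic reticulum and vacuole in that species. *GmCKX01*, on chromosome 19, stood at 2.77, 2.45 and 1.82 in well-watered plants 14, 15 and 16 and at -2.15, -2.13 and -1.82 in drought-stressed plants 1, 2 and 4. *GmCKX02*, on chromosome 3, stood at 3.00, 3.02 and 1.89 in the well-watered plants and at -1.998, -1.89 and -2.07 in the drought-stressed plants. In both genes the groups were wide apart, plant 16 was the lowest of the well-watered plants, and the drought-stressed plants lay close together. The log2 change of *GmCKX01* was -4.38 (standard error 0.24), a 20.8-fold lower signal; the mean of the well-watered plants was 2.35 ± 0.48 (SD, n = 3) and that of the drought-stressed plants -2.03 ± 0.18 (SD, n = 3). That of *GmCKX02* was -4.62 (standard error 0.28), a 24.6-fold lower signal, from 2.64 ± 0.64 (SD, n = 3) to -1.99 ± 0.090 (SD, n = 3).

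**Figure D1:**
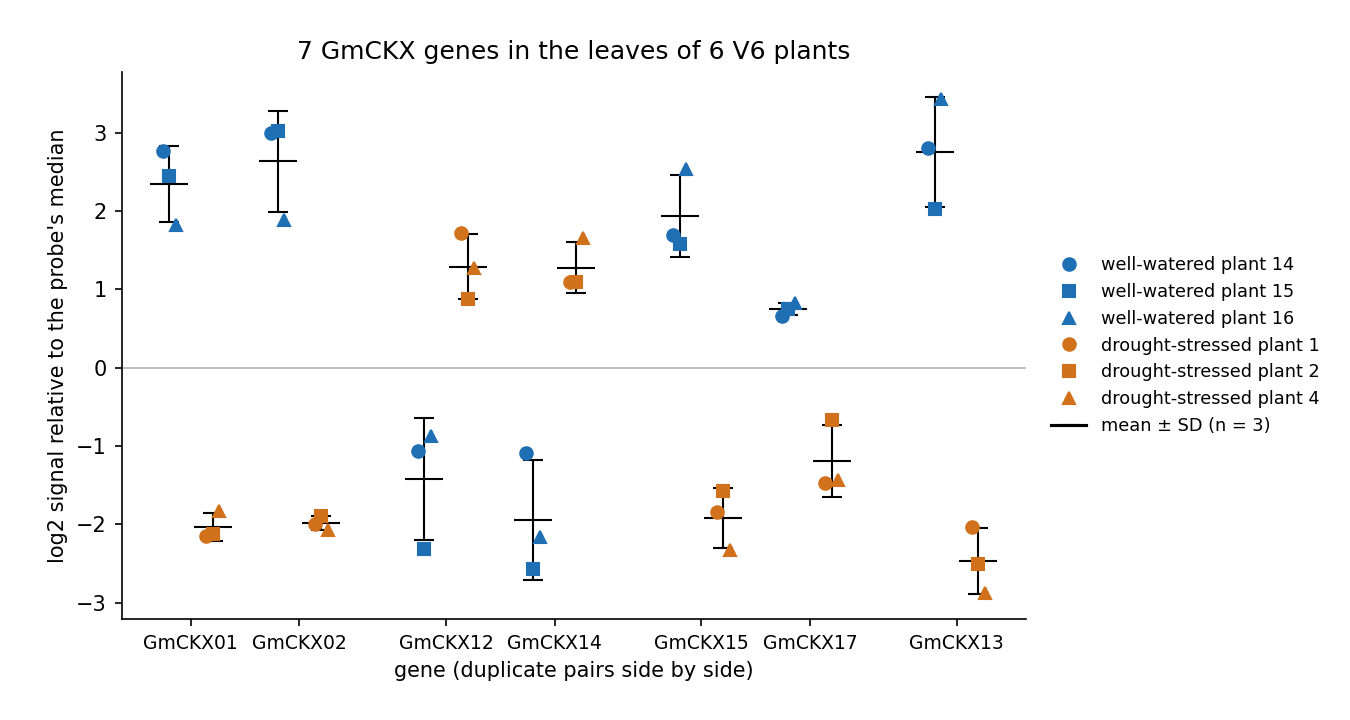
Log2 signal of each gene relative to the median of its probe (y axis) in 3 well-watered plants (blue) and 3 drought-stressed plants (orange), with the mean and SD of each group (black). *GmCKX12* and *GmCKX14* are higher under drought, the 5 other genes are lower, and in all 7 the groups do not overlap.

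*GmCKX12* and *GmCKX14* moved the other way and rose under drought. Both have CKX6 of *Arabidopsis* as their best match. *GmCKX12*, on chromosome 9, stood at -1.07, -2.31 and -0.88 in well-watered plants 14, 15 and 16 and at 1.71, 0.88 and 1.28 in drought-stressed plants 1, 2 and 4. *GmCKX14*, on chromosome 12, stood at -1.09, -2.57 and -2.16 in the well-watered plants and at 1.097, 1.09 and 1.65 in the drought-stressed plants. The well-watered plants were spread over more than a doubling in each gene, and plant 15 was the lowest for both. The log2 change was 2.71 (standard error 0.36, 6.54-fold) for *GmCKX12*, from -1.42 ± 0.78 (SD, n = 3) to 1.29 ± 0.42 (SD, n = 3). It was 3.22 (standard error 0.34, 9.31-fold) for *GmCKX14*, from -1.94 ± 0.77 (SD, n = 3) to 1.28 ± 0.32 (SD, n = 3).

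*GmCKX15* and *GmCKX17* fell together, but to unequal degrees. Their best match is CKX7, which in *Arabidopsis* is the cytosolic member of the family. *GmCKX15*, on chromosome 4, stood at 1.69, 1.58 and 2.54 in well-watered plants 14, 15 and 16 and at -1.84, -1.58 and -2.33 in drought-stressed plants 1, 2 and 4. *GmCKX17*, on chromosome 17, stood at 0.67, 0.75 and 0.82 in the well-watered plants and at -1.47, -0.67 and -1.44 in the drought-stressed plants. The well-watered plants were nearly level for *GmCKX17*, and drought-stressed plant 2 kept the highest signal of its group in both genes. The log2 change of *GmCKX15* was -3.85 (standard error 0.28, 14.4-fold), from 1.94 ± 0.53 (SD, n = 3) to -1.92 ± 0.38 (SD, n = 3). That of *GmCKX17* was -1.94 (standard error 0.23, 3.83-fold), from 0.75 ± 0.079 (SD, n = 3) to -1.19 ± 0.46 (SD, n = 3), the smallest change of the 7.

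*GmCKX13*, on chromosome 11, had the largest fall of the 7 genes. Its best *Arabidopsis* match is CKX6, as for *GmCKX12* and *GmCKX14*, which rose. *GmCKX13* stood at 2.80, 2.03 and 3.43 in well-watered plants 14, 15 and 16 and at -2.03, -2.51 and -2.87 in drought-stressed plants 1, 2 and 4. The lowest well-watered plant lay 4.06 log2 units above the highest drought-stressed plant, the widest gap among the 7 genes. Its log2 change was -5.22 (standard error 0.34), a 37.4-fold lower signal, from 2.75 ± 0.70 (SD, n = 3) to -2.47 ± 0.42 (SD, n = 3). Genes that share CKX6 as a best match therefore changed in both directions.

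Set among all 66195 probes, the 7 genes lay in the tails of the distribution of changes. Only 19 probes had a lower log2 change than *GmCKX13*, 35 a lower one than *GmCKX02*, 50 than *GmCKX01* and 97 than *GmCKX15*. For *GmCKX17* the number was 1020. On the other side, 302 probes rose more than *GmCKX14* and 471 more than *GmCKX12*. A gene counted as called where its fold was 2 or more and its limma p-value, adjusted by Benjamini-Hochberg over all probes, was under 0.05. Of the 7 genes, 5 were called lower, as were 5.14% of all probes, and 2 higher, as were 4.33%, so that all 7 were called, against 9.46% of probes. The methods' t-test at the same thresholds called 6, all but *GmCKX12*, against 5.75% of probes. The 2 groups did not overlap in any of the 7, nor in 31.3% of all probes. These counts follow from how the genes were chosen and nothing is read from them. The median log2 change was -3.85 over the 7 genes and -0.050 over all probes.

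**Figure D2:**
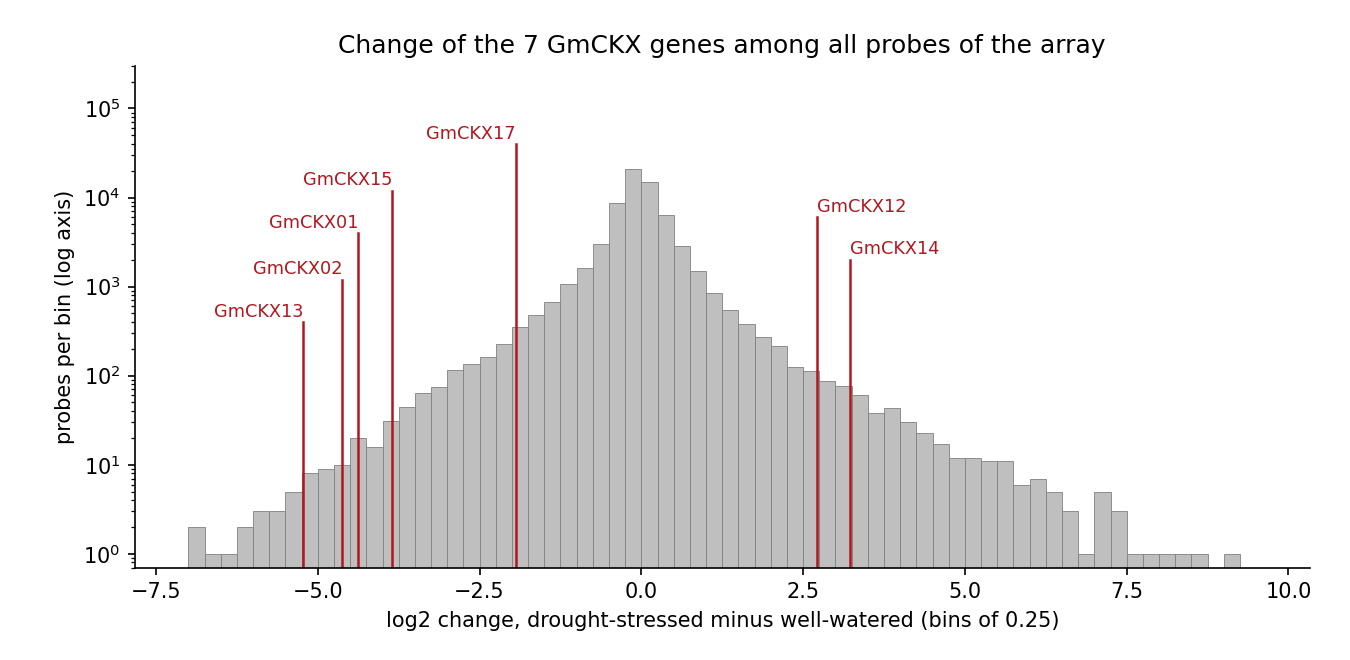
Number of probes (y axis, log scale) by log2 change between drought-stressed and well-watered plants (x axis, bins of 0.25), with the 7 genes marked by red lines whose heights carry no value. 4 of the 5 lower genes lie at or below -3.85, where few probes are found, and *GmCKX17* lies closer to the centre at -1.94.

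To compare duplicates directly, the value of one gene was subtracted from that of the other within each plant. The shift of this difference between the groups is the difference of the log2 changes, and any shift of a whole array cancels in it. For *GmCKX01* minus *GmCKX02* it was -0.23, -0.57 and -0.068 in well-watered plants 14, 15 and 16 and -0.15, -0.24 and 0.25 in drought-stressed plants 1, 2 and 4. The plants of the 2 groups overlapped, and the changes differed by 0.24 (standard error 0.21), about the standard error itself. For *GmCKX12* minus *GmCKX14* the values were 0.021, 0.26 and 1.28 with water and 0.62, -0.21 and -0.37 under drought. They overlapped as well, and the changes differed by -0.51 (standard error 0.49).

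The third pair stood apart. *GmCKX15* minus *GmCKX17* was 1.03, 0.82 and 1.72 in the well-watered plants and -0.36, -0.91 and -0.90 in the drought-stressed plants, with no overlap. The fall of *GmCKX15* exceeded that of *GmCKX17* by 1.91 on the log2 scale (standard error 0.32), a 3.77-fold difference. The *GmCKX13* fall also exceeded that of *GmCKX15*, by 1.37 (standard error 0.29), with 1.10, 0.45 and 0.89 in the well-watered and -0.19, -0.93 and -0.54 in the drought-stressed plants. These differences use the contrast by which the genes were picked and were not tested. They also set different probes against each other, and each probe may show only part of a fall. In the same quantitative RT-PCR values *GmCKX15* and *GmCKX17* were further apart than on the array.

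**Figure D3:**
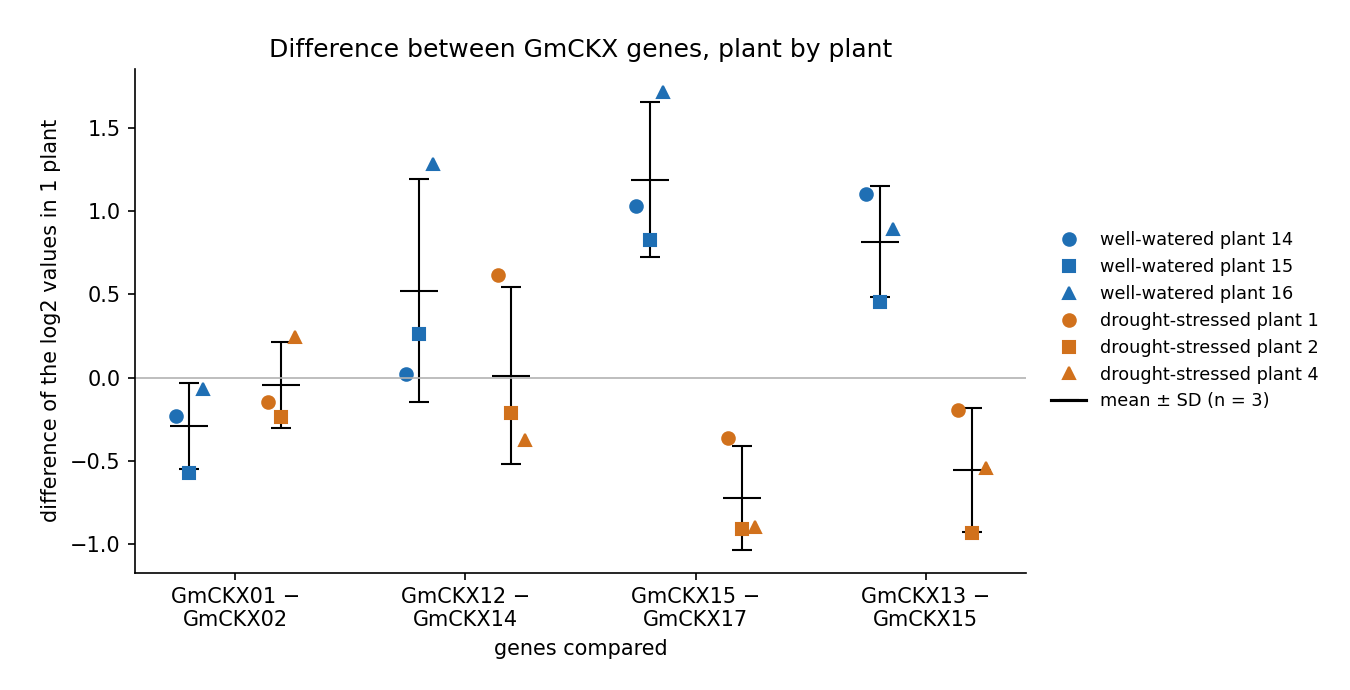
Difference of the log2 values of 2 genes within 1 plant (y axis) for the 3 duplicate pairs and for *GmCKX13* against *GmCKX15*, in well-watered (blue) and drought-stressed plants (orange), with the mean and SD of 3 plants (black). The groups overlap for the first and second pair and are apart for *GmCKX15* against *GmCKX17* and *GmCKX13* against *GmCKX15*; the height of 0 has no meaning of its own, since each probe is centred.

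In the order of the falls, *GmCKX13* came first, then *GmCKX02*, *GmCKX01*, *GmCKX15* and *GmCKX17*. The first 4 were not fully separated. *GmCKX02* and *GmCKX13* differed by 0.60 (standard error 0.78), and *GmCKX01* and *GmCKX15* by -0.53 (standard error 0.65), with overlapping plants in both comparisons. Of all 21 pairings among the 7 genes, the plants overlapped in 6, namely the first and second duplicate pairs and the pairings of *GmCKX01* and *GmCKX02* with *GmCKX13* and *GmCKX15*. Pairings of a rising with a falling gene could not overlap, since the groups of each gene were already apart in opposite directions. The fall of *GmCKX17* was smaller than that of each of the 4 others without overlap, by between 1.91 and 3.29. This order is that of the array values only. A probe may show only part of a fall, and to a different degree for each gene, which was not tested. In the quantitative RT-PCR values of V6 leaves that the study took from earlier work, each of these falls was larger. The excess over the array was smallest for *GmCKX17*, and *GmCKX15* fell more than *GmCKX01*.

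Within a group, the plants differed in ways that the duplicates shared only in part. Well-watered plant 16 lay below its group mean by -0.52 for *GmCKX01* and -0.74 for *GmCKX02*, but above it by 0.60 for *GmCKX15* and 0.68 for *GmCKX13*. The plant with the lowest signal for the CKX1 pair thus had the highest for these 2 genes. The array of plant 16 had the lowest quality weight from limma (0.40), then that of plant 14 (0.62), while plant 15 had the highest (2.13). A low weight marks an array that scatters more over all probes. Differences of the plants and of their arrays cannot be told apart here. Well-watered plant 15 lay below its group mean by -0.89 for *GmCKX12*, -0.63 for *GmCKX14* and -0.72 for *GmCKX13*. *GmCKX12* and *GmCKX14* parted in plant 16, where the first was above the mean (0.54) and the second below it (-0.22). Among the drought-stressed plants, plant 2 was above the mean for *GmCKX15* (0.34) and *GmCKX17* (0.53), and plant 4 was below it for both (-0.42 and -0.24). The pair parted in plant 1, which was above the mean for *GmCKX15* (0.077) and below it for *GmCKX17* (-0.28).

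**Figure D4:**
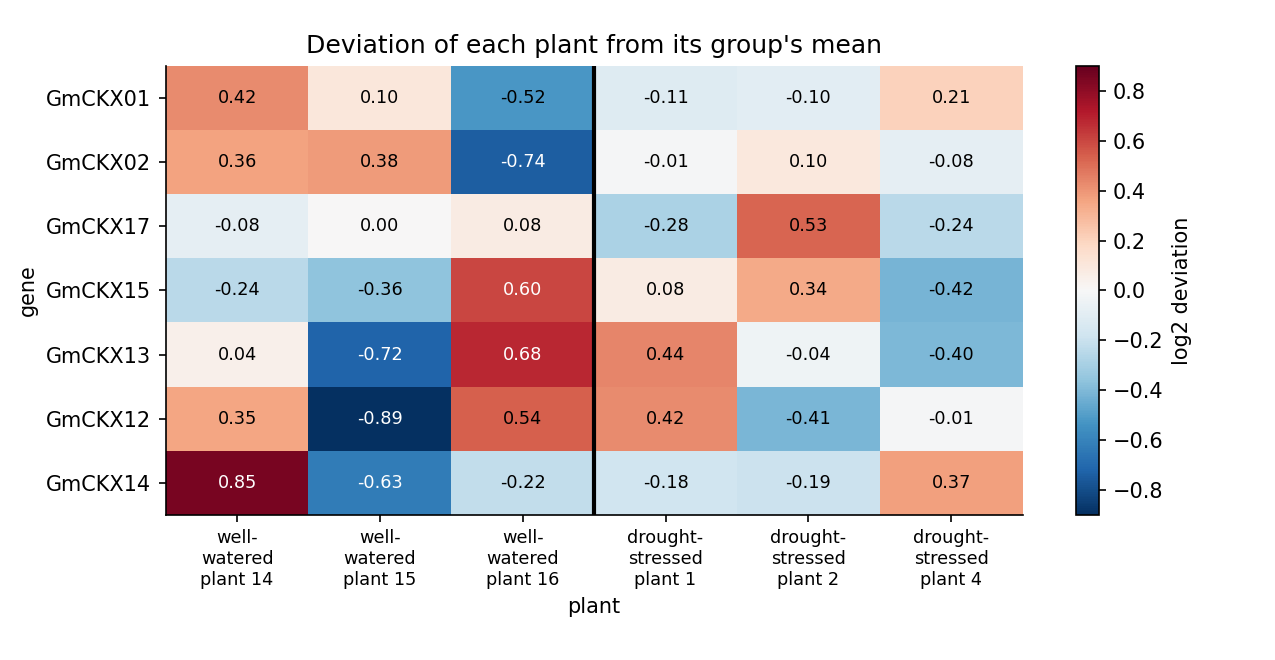
Deviation of each plant from the mean of its own group on the log2 scale (colour and number) for the 7 genes (rows) and 6 plants (columns, groups parted by the black line). Well-watered plant 16 is low for *GmCKX01* and *GmCKX02* and high for *GmCKX15* and *GmCKX13*.

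The spread was larger with water than under drought for 6 of the 7 genes, *GmCKX17* being the exception, and for 64.0% of all probes. For *GmCKX12*, *GmCKX14*, *GmCKX13* and *GmCKX02* the SD of the well-watered plants was above that of more than 96% of probes (98.5%, 98.4%, 97.6% and 96.6%). *GmCKX17* had one of the tightest groups, with a smaller SD in only 7.62% of probes. Under drought the order was different, but *GmCKX13*, *GmCKX12*, *GmCKX15* and *GmCKX14* stayed wide. Of all probes, 92.1%, 91.8%, 89.3% and 83.0% had a smaller SD than these genes. *GmCKX02* was then tighter than most (18.2% of probes had a smaller SD), while for *GmCKX17* 93.8% of probes had a smaller SD. The median SD over all probes was 0.24 with water and 0.18 under drought. Since the values hold no level, the SDs could not be set against those of probes of like signal. The well-watered group also held the arrays with the lowest quality weights (0.40 and 0.62) and the one with the highest (2.13).

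How alike the patterns of duplicates were was measured by Pearson's r over the 6 arrays, which mostly follows the split between the groups and is given without a test. For *GmCKX01* and *GmCKX02* r was 0.996, and only 30 of the 66193 other probes followed *GmCKX01* more closely than its duplicate did. For *GmCKX12* and *GmCKX14* r was 0.948, with 1158 probes closer to *GmCKX12*. For *GmCKX15* and *GmCKX17* r was 0.973, with 1377 probes closer to *GmCKX15*. With *GmCKX13*, *GmCKX15* had an r of 0.993, with 192 probes closer to *GmCKX15*.

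With each group centred on its own mean, which leaves only the differences between plants of 1 group, the likeness was weaker. The r of *GmCKX01* and *GmCKX02* was then 0.83, with 8224 probes closer to *GmCKX01*. It was 0.50 for *GmCKX12* and *GmCKX14* and 0.53 for *GmCKX15* and *GmCKX17*. *GmCKX13* reached 0.85 with *GmCKX12*, with 1718 probes closer to *GmCKX12*, and 0.80 with *GmCKX15*, while *GmCKX01* and *GmCKX15* ran against each other (-0.87). These pairings are named for their size out of 21, and others lay near 0, such as *GmCKX02* with *GmCKX17* (-0.02). These values rest on 6 arrays of which the group means take up part, and the points share their arrays.

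The probes whose patterns were most like those of the 7 genes outside the 7 are named by a fixed rule, the 2 with the highest r for each gene. They were Glyma05g36290 and Glyma08g17940 for *GmCKX01* (0.9991 and 0.999), Glyma08g28220 and Glyma10g33390 for *GmCKX02* (0.9993 and 0.9988), and Glyma19g32290 and Glyma08g02580 for *GmCKX12* (0.9988 and 0.9982). *GmCKX14* was followed by Glyma07g39910 and Glyma18g40260 (0.9991 and 0.9984), and *GmCKX15* by Glyma08g41120 and Glyma05g25800 (0.9997 and 0.9995). For *GmCKX17* they were Glyma04g37990 and Glyma12g06230 (both 0.9995), and for *GmCKX13* Glyma12g30490 and Glyma16g25250 (0.9998 and 0.9997). A like pattern did not mean a change of like size. Glyma16g25250 changed by -3.99 and Glyma12g30490 by -0.82, against -5.22 for *GmCKX13*.

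The genes beside the 7 were compared to see whether a change was that of the gene or of its surroundings. Locus numbers follow the order along the chromosome, and the 5 next numbers on each side were taken, 70 genes in all. Under drought, limma called 4 of the 70 higher and 10 lower, together 20.0% of the neighbours. Of all probes it called 9.46%, with 4.33% higher and 5.14% lower. The other 56 were not called. The median change of the 70 genes was -0.12. Of the 14 that were called, 9 went the same way as the *GmCKX* gene they lie beside. Since 10 of the 14 were lower and 5 of the 7 *GmCKX* genes fell, many would share a direction anyway, and nothing is read from this count.

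Of the neighbours, 3 changed by more than 3 on the log2 scale, each beside a different *GmCKX* gene. Glyma03g28870, 4 places before *GmCKX02*, fell from 1.99 ± 0.086 (SD, n = 3) to -2.10 ± 0.18 (SD, n = 3), with -4.09 (adjusted p = 3.7e-07 from limma), close in size to that of *GmCKX02*. Glyma09g35920, 2 places before *GmCKX12*, rose from -2.18 ± 0.65 (SD, n = 3) to 1.56 ± 0.077 (SD, n = 3), which is a rise of 3.74 (adjusted p = 1.3e-05, limma), more than *GmCKX12* itself. Glyma17g34380, 5 places after *GmCKX17*, fell from 1.39 ± 0.34 (SD, n = 3) to -1.64 ± 0.69 (SD, n = 3), with -3.03 (adjusted p = 1.1e-04 from limma), more than *GmCKX17*. No description of these genes was used here, since the study's annotation tables were read only in part.

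The first locus after each gene of the CKX1 pair was higher under drought, opposite to the pair. Beside *GmCKX01*, Glyma19g31630 rose by 1.07 (adjusted p = 0.0022 from limma). Beside *GmCKX02*, Glyma03g28920 rose by 1.51 (adjusted p = 0.0020 from limma) but did not pass with the methods' t-test. Glyma19g31630 was not called without well-watered plant 15. Glyma19g31640, the second locus after *GmCKX01*, rose by 1.07 too, but was not called without drought-stressed plant 4. On the other side of *GmCKX01*, Glyma19g31590 and Glyma19g31580 fell with -1.22 each, and the call of Glyma19g31580 was lost without any 1 of 5 plants and with the methods' t-test.

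Beside *GmCKX15*, Glyma04g05800, Glyma04g05810 and Glyma04g05860 fell, with -1.05, -1.57 and -1.77. The methods' t-test called none of these 3. Glyma04g05800 was also lost without well-watered plant 15, and Glyma04g05860 without any 1 of 4 plants. *GmCKX14* and *GmCKX13*, like *GmCKX17*, had 1 called gene among their 10 neighbours. These were Glyma12g01340 at the far end before *GmCKX14* (-1.34, limma only) and Glyma11g20920 at the far end after *GmCKX13* (-1.18). The 4 nearest loci on each side of *GmCKX13* had log2 changes of no more than 0.70 in size, against its own -5.22. The remaining called neighbour was Glyma09g35990 (-1.29), which lies after *GmCKX12* and moved against it.

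**Figure D5:**
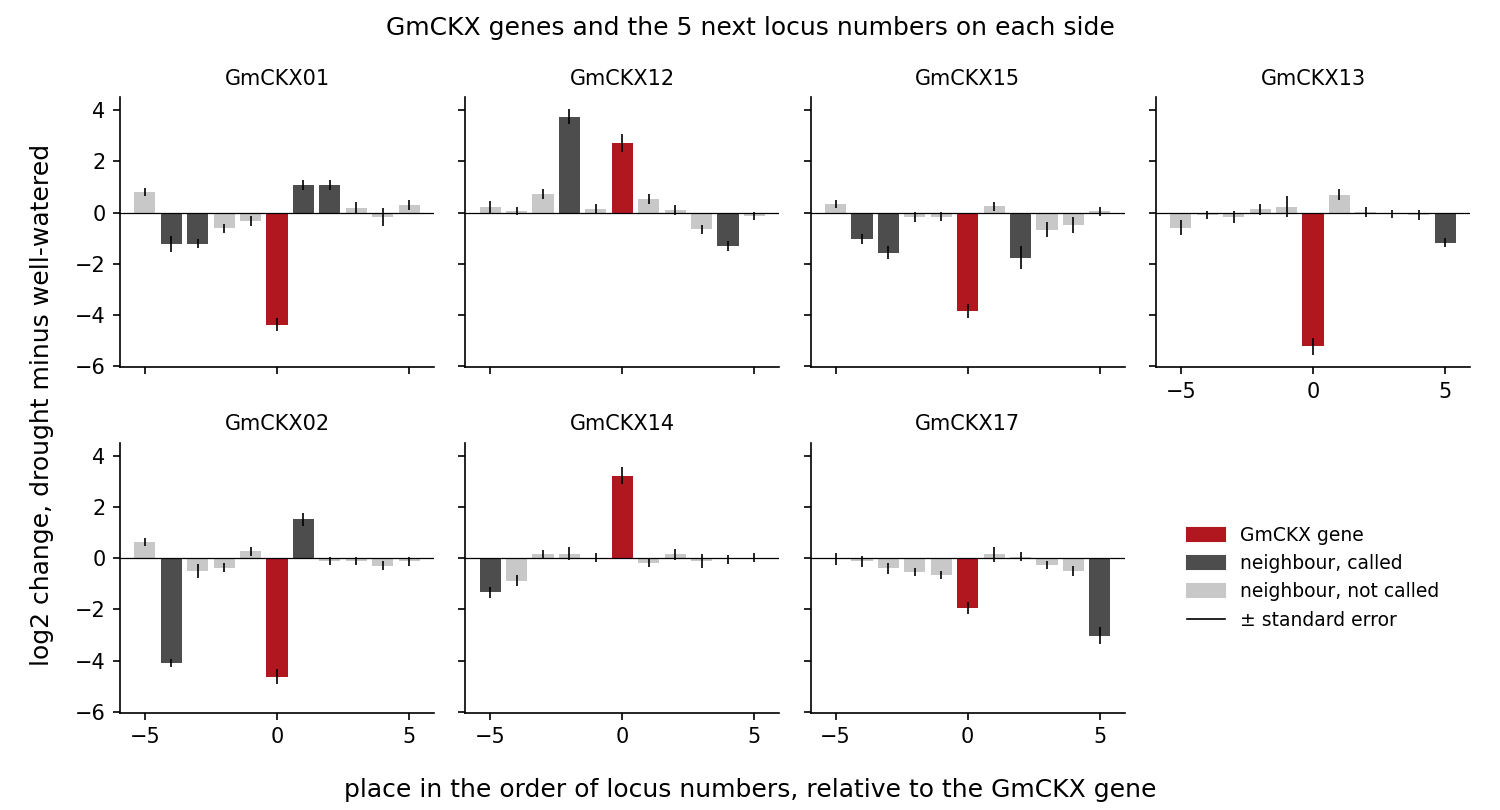
Log2 change between drought-stressed and well-watered plants (y axis, bars with standard errors) of each *GmCKX* gene (red) and of the 5 next locus numbers on each side (dark grey where called by limma, light grey where not), by place in the order of locus numbers (x axis). *GmCKX13*, *GmCKX14* and *GmCKX17* have 1 called neighbour each, at the edge of the window, while Glyma03g28870 (-4.09) stands near *GmCKX02* and Glyma09g35920 (3.74) near *GmCKX12*.

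Outside the oxidases, 3 genes of the CK pathway could be named from the study's tables, which were read only in part here. Other CK pathway genes on the array were not looked at. Glyma08g11060, the match of the CK receptor AHK3, was chosen by the study on these samples. It stood at -0.49, -0.32 and -0.48 in well-watered plants 14, 15 and 16 and at 0.32, 0.53 and 0.85 in drought-stressed plants 1, 2 and 4, without overlap. Its log2 change was 1.00 (standard error 0.18), given as a description for the same reason as for the 7 genes, and so close to the fold of 2 that it was not called without well-watered plant 14, well-watered plant 16 or drought-stressed plant 4, and with array quality weights.

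The 2 other genes were not called. Glyma01g43350, the match of the cytokinin response factor CRF2, an AP2-type transcription factor, stood at -0.060, -0.66 and -0.57 with water and at 0.94, 0.060 and 0.10 under drought. Its log2 change was 0.80 (adjusted p = 0.071 from limma, standard error 0.26), and drought-stressed plant 1 was the high plant of its group. Glyma01g04420, a weak match of the response regulator ARR3, had a log2 change of 0.075 (adjusted p = 0.87 from limma, standard error 0.18), and its groups overlapped. None of the 3 had a change near those of *GmCKX13*, *GmCKX02*, *GmCKX01* or *GmCKX15*.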

How the data were processed

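The authors deposited log2 signals, obtained with RMA at gene level (Affymetrix Expression Console, normalization off) and then set in GeneSpring to a common 75th percentile. Every probe has a median of 0 over the 6 arrays, so the deposited values were also centred per probe, and depth is given by the number of arrays only. Another deposited table gave the gene ID of each probe, and its fold changes and p-values, the authors' own comparison, were not used.

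All 66195 probes were fitted with limma 3.58.1 in R 4.3.3 (lmFit and eBayes, 3 plants against 3, no pairing, 4 residual and 5.93 prior degrees of freedom), with Benjamini-Hochberg adjustment over all probes. The code was tested on simulated data. The median standard error of a log2 change was 0.19. Pairs were compared by differences within a plant, with the pooled SD. Plants were taken as independent. The members, lists and naming rule were chosen with earlier results of these data known. The rule names the 7 genes, the 2 most alike probes of each, neighbours that were called, and CK genes described in the parts of the study's tables that were read. Other cytokinin oxidase genes, proteins and promoters were not analysed here. Alternatives were median centring, quantile normalization, array quality weights, each plant left out, the methods' t-test, no fold minimum, and a filter on variance.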

Additional observations from a re-analysis of the deposited data

How the results depend on the processing

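With quantile normalization, median centring or array quality weights, the log2 change of *GmCKX13* ran from -5.66 to -4.83 and that of *GmCKX17* from -1.91 to -1.85, and each of the 7 kept its sign. Median centring cancels in the pair differences. Neither leaving out 1 plant nor weighting the arrays can turn the sign of a gene whose groups do not overlap. The array medians also lay far closer together than the 2 groups of any of the 7 genes, so median centring could not turn a sign either. The signs kept in these settings are therefore no sign of stability. Without 1 plant, *GmCKX12* minus *GmCKX14* ran from -0.81 to -0.13, *GmCKX01* minus *GmCKX02* from 0.097 to 0.35, and *GmCKX15* minus *GmCKX17* from -2.10 to -1.65. The 7 genes were called in every setting but the methods' t-test, which left out *GmCKX12*. Over all probes, that test called 1808 higher and 2000 lower, against 2864 and 3401 with limma, and with no fold minimum limma called 5131 and 5706. Of the 70 neighbours, 8 were called by the methods' t-test, which called 5.75% of all probes. With no fold minimum limma called 22 of them, against 14 in the main setting. Of the 3 CK pathway genes outside the oxidases, 0 were called higher with array quality weights, and between 0 and 1 without 1 plant. Likeness depended on the measure: 5225 probes were closer to *GmCKX01* than *GmCKX02* by Spearman's rho and 8224 with groups centred on their means, against 30. For *GmCKX12* and *GmCKX14* 10070 probes were closer with groups centred, against 1158. For *GmCKX15* and *GmCKX17* the numbers were 2304 and 7838, against 1377. No paired analysis was possible because the plant numbers differ between the groups. Settings for protein identity and for other cytokinin oxidase genes were not run. With 3 plants per group, only pairings of genes that moved the same way could overlap. Among these, the plants overlapped in every pairing whose changes differed by 0.85 or less, and in none that differed by 1.37 or more.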
